A study of Mus musculus with 2 samples.

Results

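Sox4, Sox11 and Sox12, which form the SoxC group of transcription factors, were followed through single-nucleus RNA profiles of embryonic mouse neocortex together with 2 noncoding RNA genes beside Sox4, 2610307P16Rik and A330102I10Rik. The 5 genes were taken by symbol from the 33938 genes of the deposited table. They were chosen by the levels of the noncoding RNAs, which differed between the 2 libraries of the study in an earlier reading of these data, so differences between the libraries are given as a description and no test is built on them. Both noncoding RNAs were lower in the library labelled MEN1-NCKO than in the library labelled MEN1-F/F in each of the 9 populations compared, with ratios from 0.0860 to 0.765 for 2610307P16Rik and from 0.208 to 0.704 for A330102I10Rik. Among those populations the ratio of 2610307P16Rik was lowest in layered excitatory neurons, but the few microglia-like nuclei had a ratio as low. Sox4 ratios ran from 0.671 to 1.27 and Sox11 ratios from 0.750 to 1.03, so they overlap the upper end of the noncoding ones, and Sox12 did not differ beyond counting error in any of the 9 populations compared.

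Nuclei came from micro-dissected neocortices of embryos, and 1 library was made for each genotype label, MEN1-F/F (F/F below) and MEN1-NCKO (NCKO below). The embryonic age, the strain, the number of embryos in a library, the Cre driver and the deleted part of Men1 are not stated in the labels. The F/F-labelled library kept 6130 nuclei with a median of 3668.5 UMIs (unique molecular identifiers, each counting 1 captured RNA molecule), and the NCKO-labelled library kept 9807 nuclei with a median of 3583 UMIs. Neither label has a replicate, and no test between them is possible. The 95% intervals cover counting error only, and each difference is one between these libraries. Populations are written X-like because their names were rebuilt from marker genes.

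SoxC proteins bind DNA through a high-mobility-group domain and carry an activation domain at the C-terminal end. They are known as factors of newly born neurons: Sox4 and Sox11 are switched on as progenitors leave the cell cycle, act with POU-domain partners, and activate genes of neuronal differentiation such as Tubb3 and Dcx, while Sox12 is the weakest activator of the group. Long noncoding RNAs beside developmental factors are often transcribed in the same tissues as the factor. What 2610307P16Rik and A330102I10Rik do is not stated here.

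Sox4, a single-exon gene of chromosome 13, covers 28948919 to 28953713 on the minus strand (GRCm38, GENCODE vM21). 2610307P16Rik lies 63299 bp beyond its 3′ end on the same strand, from 28460034 to 28885620, and spans 425587 bp, of which 0.774% is exonic. A330102I10Rik lies 60686 bp beyond its 5′ end on the plus strand, from 29014399 to 29040336, and spans 25938 bp, of which 6.83% is exonic. Sox11, also a single-exon gene, covers 27334264 to 27342574 of chromosome 12, and Sox12 covers 152393611 to 152398063 of chromosome 2, both on the minus strand. In the annotation Gm26735 overlaps Sox4 on the opposite strand. Gm11362, Gm17528 and Gm6081 overlap 2610307P16Rik, and the microRNA gene Mir6368 lies inside it. The strand setting of the counting, and whether reads in introns were counted, are not stated in the labels, so UMIs of overlapping genes cannot be told apart. No level of those overlapping genes was analysed here.

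RefSeq promoter sequence (GRCm38.p6) was at hand for 4 of the 5 genes, the exception being A330102I10Rik. The stretches from 250 to 51 bases before the RefSeq start are shown for the 2 abundant SoxC genes and for the noncoding RNA with the largest difference, to set their start regions side by side. They are printed 5′ to 3′ on the minus strand, on which all 3 genes lie, and capitals mark matches on either strand to CCAAT, the E-box CANNTG and the Sox core motif AACAAT. The windows are chr13:28953750-28953949 for Sox4, chr12:27342769-27342968 for Sox11 and chr13:28885473-28885672 for 2610307P16Rik.
Sox4: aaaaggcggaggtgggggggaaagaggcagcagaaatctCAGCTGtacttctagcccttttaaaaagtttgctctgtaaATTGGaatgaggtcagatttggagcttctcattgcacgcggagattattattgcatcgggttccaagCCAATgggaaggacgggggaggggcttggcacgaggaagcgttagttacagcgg
Sox11: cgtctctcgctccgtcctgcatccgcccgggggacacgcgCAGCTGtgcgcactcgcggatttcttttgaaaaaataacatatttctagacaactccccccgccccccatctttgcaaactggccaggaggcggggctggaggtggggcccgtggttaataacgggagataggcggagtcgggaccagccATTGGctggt
2610307P16Rik: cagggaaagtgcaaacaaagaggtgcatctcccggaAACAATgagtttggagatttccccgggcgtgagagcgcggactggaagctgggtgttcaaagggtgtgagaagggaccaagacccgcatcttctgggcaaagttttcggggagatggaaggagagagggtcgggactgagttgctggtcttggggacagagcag
The Sox4 window held 2 CCAAT matches and 1 E-box, and the Sox11 window held 1 of each, with the same E-box letters, CAGCTG. The window of 2610307P16Rik held neither and held 1 Sox core match, which was in none of the SoxC windows. Among 32851 RefSeq windows of 200 bases, 28.4% held CCAAT, 59.0% an E-box and 7.96% the Sox core. In GENCODE, 2610307P16Rik starts 198 bp further upstream, so 148 bases of its window lie inside that gene model. A match is a string of letters, and binding was not measured.

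Men1, the gene named in the labels, was not lower over all nuclei of the NCKO-labelled library: it had 276 UMIs (10.3 CPM, the UMI count of a gene scaled to the UMI total of the population) in F/F and 576 UMIs (13.9 CPM) in NCKO, a ratio of 1.35 (1.17 to 1.57). The radial glia-like ratio was 0.3 (0.0803 to 0.962), from 10 and 5 UMIs. Since tags at the 3′ end may lie beyond a deleted exon, they cannot check the genotype, so the labels are neither borne out nor refuted by these values and the libraries are called by their labels. Nuclei were clustered without the 5 genes, and clusters were named from marker genes. The 9 populations with at least 100 nuclei in each library held 120 nuclei (intermediate progenitor-like, NCKO) to 2139 nuclei (upper-layer-like, NCKO). They include 676 and 1014 striatal or LGE-like nuclei, a type of the lateral ganglionic eminence that lies outside the neocortex given as the tissue.

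Among the 9 populations, Sox4 was highest in intermediate progenitor-like nuclei, which divide to give excitatory neurons, and in migrating excitatory neuron-like nuclei, their young progeny. In the F/F-labelled library its level was 125 CPM in radial glia-like, 334 CPM in intermediate progenitor-like, 382 CPM in migrating, 160 CPM in upper-layer-like, 150 CPM in layer 5-like and 185 CPM in layer 6-like nuclei. In the NCKO-labelled library the same populations had 98, 424, 345, 120, 152 and 185 CPM. The level was thus higher in intermediate progenitor-like than in radial glia-like nuclei, 2.67-fold (2 to 3.60) in F/F and 4.32-fold (3.30 to 5.69) in NCKO. Upper-layer-like nuclei had 0.418 (0.361 to 0.486) of the migrating level in F/F and 0.347 (0.298 to 0.405) in NCKO. The populations at the top of the order did not differ beyond counting error: migrating over intermediate progenitor-like was 1.14 (0.923 to 1.42) in F/F, and intermediate progenitor-like over migrating was 1.23 (0.981 to 1.54) in NCKO. With other processing the intermediate progenitor-like level of F/F went down to 0.503 times that given, so its place and its step from radial glia-like nuclei depend on the processing. The 5 lowest populations in F/F (upper-layer-like, layer 5-like, striatal or LGE-like, MGE-like and radial glia-like, 160 to 125 CPM) formed a run in which no neighbours differed beyond counting error. Outside the named populations, unnamed cluster 11 had a higher Sox4 level in F/F, 470 CPM, and 286 CPM in NCKO. MGE-like and CGE-like stand for interneurons of the medial and caudal ganglionic eminence.

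Sox11 peaked 1 step later than the progenitors. Its level in F/F was 260 CPM in radial glia-like, 806 CPM in intermediate progenitor-like and 1195 CPM in migrating nuclei, and the migrating nuclei stood 1.48-fold (1.30 to 1.69) above the progenitors. In the NCKO-labelled library the levels were 229, 807 and 1030 CPM, with migrating nuclei 1.28-fold (1.1 to 1.48) above. Over 12 alternatives the intermediate progenitor-like log2 ratio of NCKO to F/F ran from -0.72 to 0.17, so the levels of that class depend on the processing. Upper-layer-like nuclei had 413 CPM in F/F and 338 CPM in NCKO, layer 5-like nuclei 304 and 315 CPM, and layer 6-like nuclei 506 and 487 CPM. Among interneurons, MGE-like nuclei had 558 and 418 CPM and CGE-like nuclei 575 and 478 CPM. Migrating, intermediate progenitor-like and radial glia-like nuclei took the first, second and last place in both libraries, and in F/F the last step, from layer 5-like to radial glia-like nuclei, was within counting error (1.17, 0.973 to 1.41).

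Sox12 was low everywhere and showed no order that exceeded counting error. Its level lay between 11.4 and 24.6 CPM in F/F and between 14.1 and 26.1 CPM in NCKO, from as few as 5 UMIs in a population. All neighbours in both orders overlapped. With so few UMIs the intervals are wide, for example 18 CPM (8.64 to 33.1) in migrating nuclei of F/F and 26.1 CPM (14.6 to 43) in NCKO.

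2610307P16Rik followed the progenitor-to-newborn peak. In F/F it stood at 719 CPM in radial glia-like, 1731 CPM in intermediate progenitor-like and 1687 CPM in migrating nuclei. Layered neurons of F/F had 504 CPM (upper-layer-like), 677 CPM (layer 5-like) and 538 CPM (layer 6-like), and the lowest of the 9 populations was MGE-like at 281 CPM. In the NCKO-labelled library the 3 young populations had 384, 1324 and 1228 CPM, and the layered ones had 81.8, 99.1 and 46.3 CPM. Intermediate progenitor-like and migrating nuclei were first and second in both libraries and did not differ from each other beyond counting error (1.03, 0.931 to 1.13 in F/F and 1.08, 0.953 to 1.22 in NCKO). From migrating to upper-layer-like nuclei the level was 3.35-fold lower in F/F, at 0.299 (0.278 to 0.321) of the migrating level, and 15-fold lower in NCKO, at 0.0666 (0.0602 to 0.0738). The intervals of these 2 steps do not overlap, but they cover counting error only. Under some other choices of doublet filter or clustering, given further on, the migrating level in NCKO was lower. The size of the NCKO step thus rests on that choice.

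A330102I10Rik had another order, with its highest levels in deep-layer neurons. Layer 6-like nuclei had 185 CPM and layer 5-like nuclei 178 CPM in F/F, against 130 and 125 CPM in NCKO, and these neighbours did not differ beyond counting error in either library. CGE-like nuclei came next with 105 and 53.6 CPM. Upper-layer-like nuclei had 83.6 CPM in F/F and 26.8 CPM in NCKO, so that layer 6-like nuclei stood 2.21-fold (1.97 to 2.48) above them in F/F and 4.85-fold (4.19 to 5.62) in NCKO. Radial glia-like nuclei were lowest, with 10 UMIs (17.6 CPM) and 6 UMIs (6.32 CPM).

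**Figure D1:**
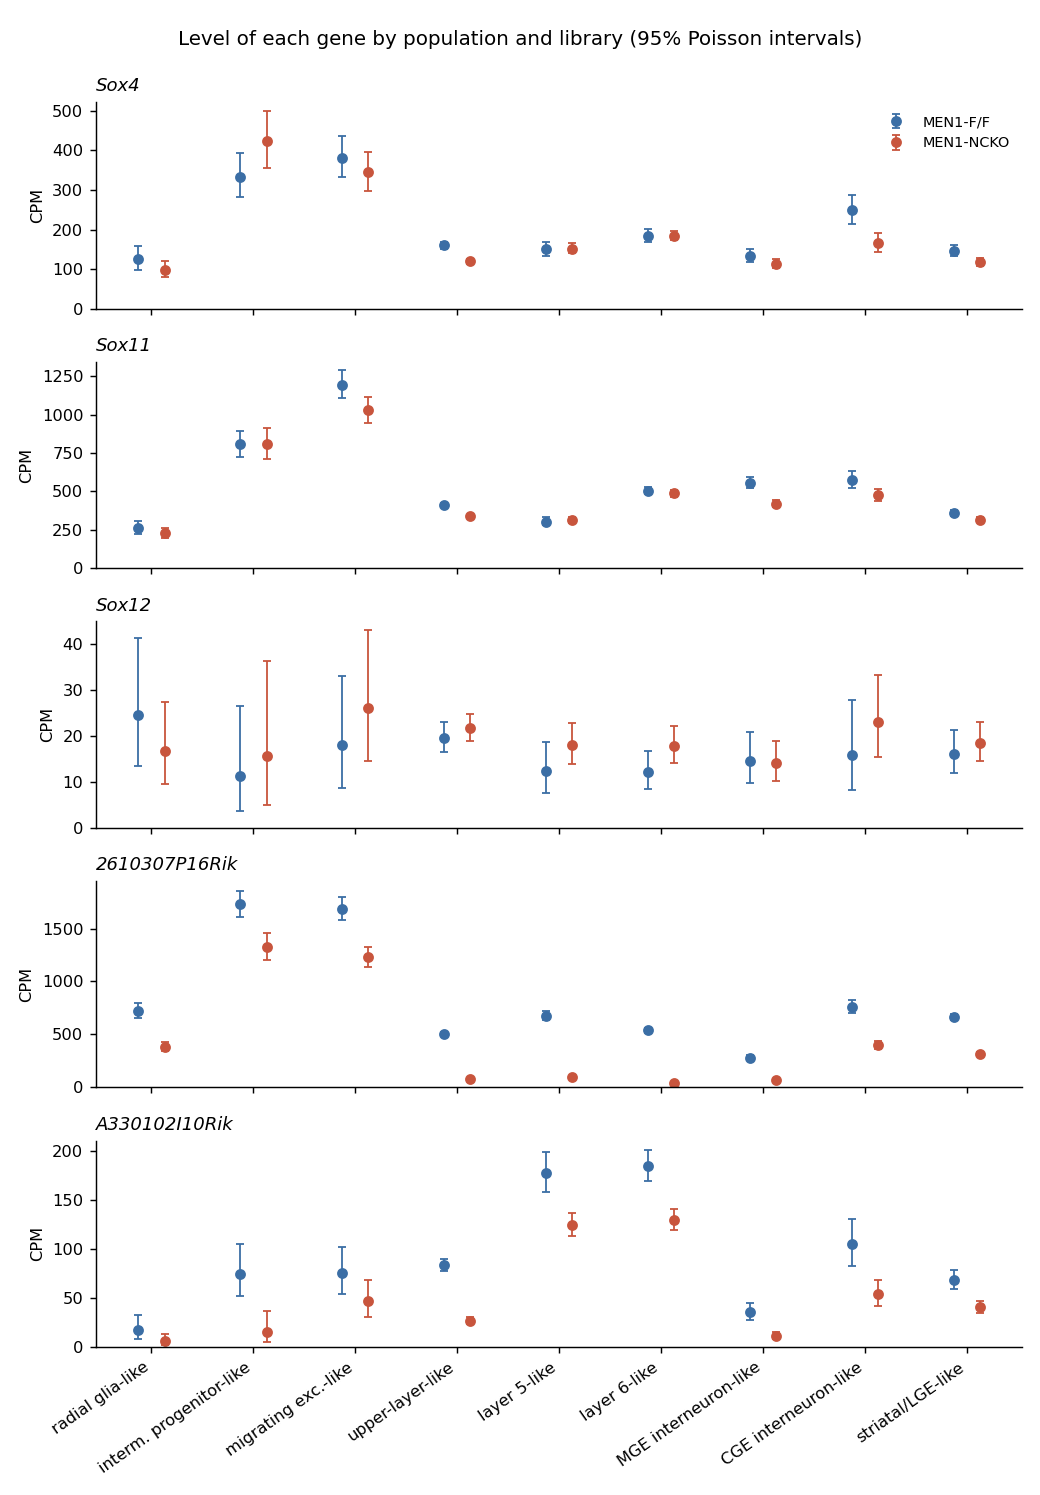
Level (CPM, linear axis from 0) of each gene in the 9 populations, for the F/F-labelled (blue) and NCKO-labelled (red) library, with exact Poisson 95% intervals. Sox4, Sox11 and 2610307P16Rik stand highest in intermediate progenitor-like and migrating nuclei, A330102I10Rik in layer 5-like and layer 6-like nuclei, and the red points of 2610307P16Rik lie below 100 CPM in upper-layer-like, layer 5-like, layer 6-like and MGE-like nuclei.

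The plot of levels shows that the SoxC pair and 2610307P16Rik share the early peak, while the libraries part mainly in the lower 2 panels. Over the 18 points formed by 9 populations in 2 libraries, Sox4 and Sox11 had a Spearman correlation of 0.82, Sox4 and 2610307P16Rik 0.67, Sox4 and A330102I10Rik 0.46, and the 2 noncoding RNAs 0.10. Within the 9 points of F/F the first 2 of these values were 0.82 and 0.60, and within NCKO 0.83 and 0.43. Points of a library share its depth and chemistry, so these values describe the tables only. Among 10744 genes with at least 500 UMIs, the patterns most like that of Sox4 were those of Angptl1 (0.95), St3gal5 (0.92) and Ralgps2 (0.90), and those most like Sox11 were Calcoco1, Avl9 and Klhl24 (0.94 each). For 2610307P16Rik they were Primpol (0.92), Qsox1 (0.91) and Pantr1 (0.90), and for A330102I10Rik they were Csrp2 (0.86), Armh4 (0.85) and Lrrc20 (0.84). Sox12 had one of 0.81 with Sprtn and then 0.73 with Rpl38.

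Between the libraries, 2610307P16Rik was lower in NCKO in all 9 populations, and every interval lay below 1. The late-born excitatory neurons of the upper layers had 3931 UMIs in F/F, 504 CPM (488 to 520), and 821 UMIs in NCKO, 81.8 CPM (76.3 to 87.6). The ratio of NCKO to F/F was 0.162 (0.150 to 0.175). Counts in layer 6-like nuclei were 1637 against 213 UMIs, 538 CPM (513 to 565) against 46.3 CPM (40.3 to 53), a ratio of 0.0860 (0.0742 to 0.0993). Layer 5-like nuclei had 1156 against 368 UMIs and a ratio of 0.146 (0.13 to 0.165). These are 11.6-fold, 6.83-fold and 6.16-fold lower levels in layer 6-like, layer 5-like and upper-layer-like nuclei. In order of log2 of (CPM + 5) in NCKO over F/F, the gene was the lowest of 9252 genes in layer 5-like and of 10394 genes in layer 6-like nuclei, and second lowest of 12746 in upper-layer-like nuclei.

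In the 2 populations with the highest levels the ratio was nearer to 1 as processed here, with limits given below. The ratio was 0.765 (0.678 to 0.862) in intermediate progenitor-like nuclei, from 762 and 425 UMIs, and 0.728 (0.659 to 0.804) in migrating nuclei, from 936 and 706 UMIs. The migrating level in NCKO, 1228 CPM, was 583 to 710 CPM under 4 other choices of doublet filter or clustering. The migrating log2 ratio, -0.46 as reported, ran from -0.95 to -0.32 over 12 alternatives. At its lowest it was no nearer to equal levels than the reported radial glia-like and CGE-like values, -0.90 and -0.93. Unnamed cluster 6 scored nearest to the migrating markers but lay outside the class, with a ratio of 0.498 (0.446 to 0.556). The value for intermediate progenitors rests on how nuclei were filtered: with no doublet removal the class shrank to 15 and 18 nuclei and its log2 ratio turned from -0.39 to 0.25. Radial glia-like nuclei had a ratio of 0.533 (0.462 to 0.616), striatal or LGE-like nuclei one of 0.473 (0.441 to 0.508) and MGE-like nuclei one of 0.240 (0.204 to 0.281), although the F/F level of the latter, 281 CPM, lies within the microglia-like interval given further on. CGE-like nuclei had 573 against 481 UMIs and a ratio of 0.522 (0.461 to 0.590), but this class held nuclei of unlike levels. Its 195 and 311 nuclei that a second clustering also named CGE had 355 against 76.8 CPM, a ratio of 0.217 (0.163 to 0.285), and the other 84 and 145 nuclei had 1945 against 1423 CPM, a ratio of 0.732 (0.635 to 0.844). The latter held less Prox1, a factor of CGE interneurons, than the former: 276 and 139 CPM against 514 and 451 CPM.

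A330102I10Rik was lower in NCKO in all 9 populations as well, and the interval lay below 1 in 7 of them. Upper-layer-like nuclei had 652 against 269 UMIs, 83.6 CPM (77.3 to 90.2) against 26.8 CPM (23.7 to 30.2), a ratio of 0.321 (0.277 to 0.370). In layer 5-like and layer 6-like nuclei, where its level was highest, the ratios were 0.700 (0.605 to 0.812) and 0.704 (0.626 to 0.791). The MGE-like ratio was 0.315 (0.204 to 0.477) from 73 and 35 UMIs, the CGE-like ratio 0.511 (0.362 to 0.719) and the striatal or LGE-like ratio 0.597 (0.484 to 0.735). The intermediate progenitor-like ratio was 0.208 (0.0633 to 0.536), from 33 and 5 UMIs. Migrating nuclei (42 against 27 UMIs, 0.621, 0.368 to 1.03) and radial glia-like nuclei (10 against 6 UMIs) did not differ beyond counting error. On the log2 scale the intermediate progenitor-like value of A330102I10Rik, -1.96, ran from -3.23 to -0.13 over 12 alternatives, and the MGE-like value, -1.32, from -2.63 to -0.67, so no order of these populations is read from them.

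**Figure D2:**
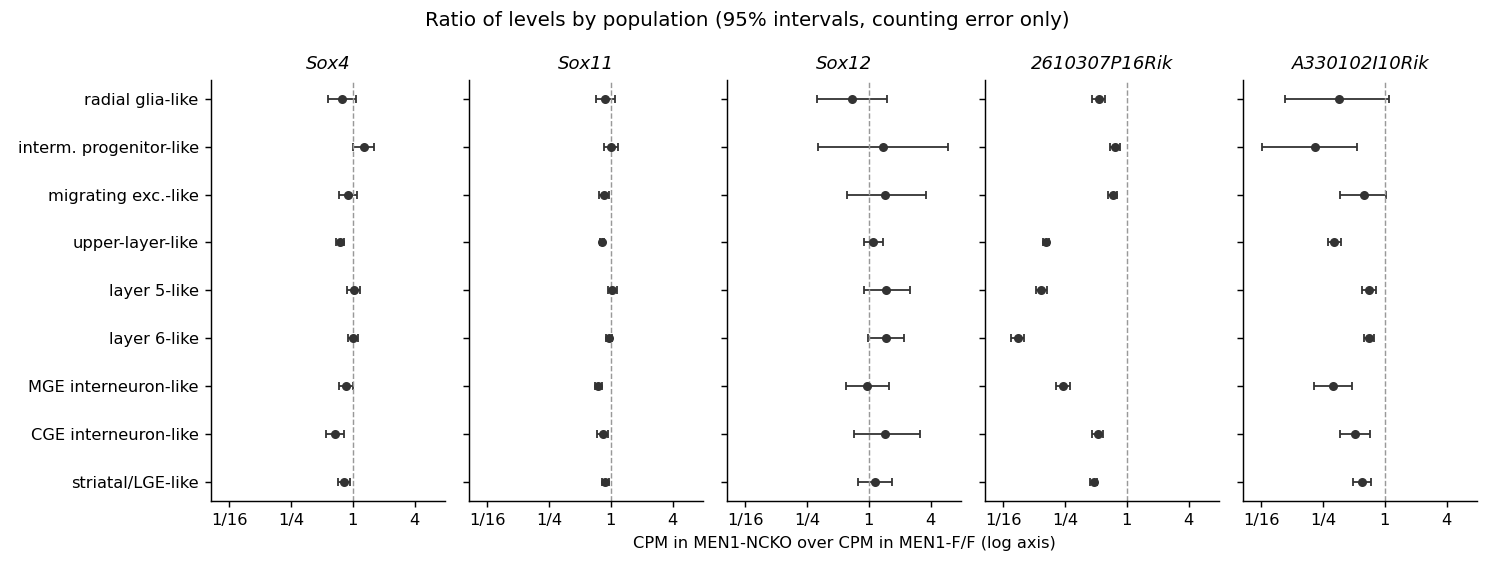
Ratio of the level (CPM) in the NCKO-labelled library to that in the F/F-labelled library for each gene (panels) and population (rows), on a log axis, with exact conditional binomial 95% intervals; the dashed line marks equal levels. All 9 points of 2610307P16Rik lie left of the line, from 0.0860 in layer 6-like to 0.765 in intermediate progenitor-like nuclei, and all intervals of Sox12 cross it.

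In layered neurons the SoxC genes themselves differed by far less than 2610307P16Rik. In unnamed cluster 11 the Sox4 ratio, 0.609 (0.493 to 0.753), was no nearer to 1 than that of 2610307P16Rik, 0.702 (0.64 to 0.771). Sox4 had 1247 UMIs in F/F and 1199 in NCKO in upper-layer-like nuclei, 160 CPM (151 to 169) against 120 CPM (113 to 126), a ratio of 0.748 (0.690 to 0.810). It was also lower in CGE-like nuclei, 248 against 167 CPM (0.671, 0.547 to 0.823), and in striatal or LGE-like nuclei, 146 against 118 CPM (0.814, 0.714 to 0.928). In MGE-like nuclei the ratio was 0.851 with an upper bound of 1, and 0.969 with clusters weighted as in F/F. In layer 5-like and layer 6-like nuclei, where 2610307P16Rik showed its lowest ratios, the Sox4 ratios were 1.02 (0.874 to 1.18) and 0.999 (0.897 to 1.11). Intermediate progenitor-like nuclei had 334 against 424 CPM of Sox4, a ratio of 1.27 (0.997 to 1.61) that did not exceed counting error, and migrating nuclei had 382 against 345 CPM (0.902, 0.739 to 1.1).

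Sox11 had 3225 against 3394 UMIs in upper-layer-like nuclei, 413 CPM (399 to 428) against 338 CPM (327 to 350), a ratio of 0.818 (0.780 to 0.859). Its ratio was 0.750 (0.692 to 0.813) in MGE-like, 0.831 (0.732 to 0.943) in CGE-like, 0.881 (0.812 to 0.956) in striatal or LGE-like and 0.862 (0.770 to 0.964) in migrating nuclei. The MGE-like value was 0.826 with clusters weighted as in F/F. Its clusters 3 and 12 had 0.824 (0.747 to 0.908) and 0.832 (0.717 to 0.966). In layer 5-like (1.03, 0.931 to 1.15), layer 6-like (0.963, 0.902 to 1.03), intermediate progenitor-like (1, 0.849 to 1.18) and radial glia-like nuclei (0.878, 0.709 to 1.09) Sox11 did not differ beyond counting error. Sox12 had ratios from 0.685 to 1.47, and all 9 intervals held 1. Its upper-layer-like value of 1.11 (0.897 to 1.37) came from 153 and 218 UMIs.

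Genes counted as past the fold used here were those with at least 50 UMIs and a level lower or higher in NCKO by log2 1 or more, on the scale of log2 of (CPM + 5). In upper-layer-like nuclei 2 of the 5 genes, 2610307P16Rik at -2.55 and A330102I10Rik at -1.48, were lower by this measure, beside 0.455% of all 12746 genes measured. In MGE-like nuclei the same 2 genes were (-1.98 and -1.32, beside 0.582%), and in layer 5-like (-2.71, 0.443%), layer 6-like (-3.40, 0.375%) and striatal or LGE-like nuclei (-1.07, 0.339%) 2610307P16Rik alone of 5. None of the genes with at least 50 UMIs passed in radial glia-like (0 of 3, beside 0.884%), intermediate progenitor-like (0 of 3, beside 1.7%), migrating (0 of 4, beside 1.53%) or CGE-like nuclei (0 of 4, beside 0.507%). Over all nuclei 1 of 5 did, 2610307P16Rik at -1.55, beside 0.122%. The choice of the genes used these differences, so nothing is read from the counts. None of the 5 was higher by log2 1 in any of the 9 populations. The shares of all genes that were higher by that much were 1.22% in radial glia-like, 2.3% in intermediate progenitor-like, 1.14% in migrating, 0.165% in upper-layer-like, 0.151% and 0.212% in layer 5-like and layer 6-like, 0.37% in MGE-like, 0.736% in CGE-like and 0.104% in striatal or LGE-like nuclei, and 0.0466% over all nuclei. Counted by sign alone, 3 of 3 genes were below 0 in radial glia-like (49.6% of all genes), 1 of 3 in intermediate progenitor-like (46.1%), 4 of 4 in migrating (48.6%), 4 of 5 in upper-layer-like (48.4%) and 2 of 5 in layer 5-like nuclei (45.6%). They were 4 of 5 in layer 6-like (40.8%), 5 of 5 in MGE-like (48.1%), 4 of 4 in CGE-like (46.5%) and 4 of 5 in striatal or LGE-like nuclei (44.4%), and 4 of 5 over all nuclei (44.9%).

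Populations with fewer than 100 nuclei in a library did not all share the direction. In Cajal-Retzius-like nuclei, early neurons of the marginal zone (37 and 116 nuclei), 2610307P16Rik had 30 against 95 UMIs, 119 against 150 CPM, a ratio of 1.25 (0.823 to 1.96). Sox11 was higher there in NCKO, with 18 against 85 UMIs and a ratio of 1.87 (1.11 to 3.30). The A330102I10Rik ratio was 4.94 (1.23 to 43.1), from 2 and 25 UMIs. In astrocyte-like nuclei (49 and 82) 2610307P16Rik had a ratio of 0.802 (0.511 to 1.27), and in oligodendrocyte precursor-like nuclei (94 and 204) one of 0.389 (0.307 to 0.493). In microglia-like nuclei (22 and 44) it had 25 against 6 UMIs and a ratio of 0.137 (0.0460 to 0.342), an interval that holds the upper-layer-like, layer 5-like and layer 6-like ratios, so the difference is not shown to be particular to layered neurons.

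Within single clusters the direction held for the noncoding RNAs. Of the 26 clusters with at least 50 nuclei in each library, 2610307P16Rik was lower in NCKO in 26, with 25 intervals below 1, and A330102I10Rik in 25, with 17 intervals below 1. Sox11 was lower in 18, with 13 intervals below 1 and 1 above, the latter in cluster 16, oligodendrocyte precursor-like (150 against 253 CPM, 1.69, 1.15 to 2.53). Sox4 was lower in 19, with 6 intervals below 1, and Sox12 in 11, with 1 interval below 1 (cluster 11, 8 against 4 UMIs, 0.225, 0.0497 to 0.841) and 1 above (cluster 2, 29 against 71 UMIs, 1.61, 1.03 to 2.58). For 2610307P16Rik the ratio ran from 0.0632 (0.0506 to 0.0782) in cluster 2, layer 6-like, to 0.984 (0.837 to 1.16) in cluster 25, migrating. The 6 clusters of upper-layer-like, layer 5-like and layer 6-like nuclei lay between 0.0632 and 0.254, while their F/F levels were 420 to 810 CPM. The 6 clusters with F/F levels of 1000 CPM or more, a bound set after the values were seen, lay between 0.570 and 0.984. They were both migrating clusters, an intermediate progenitor-like, a ganglionic eminence progenitor-like and 2 unnamed clusters, and the highest level was that of unnamed cluster 11, led by Pbx3, Foxp2 and Tshz1 (2222 against 1560 CPM).

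**Figure D3:**
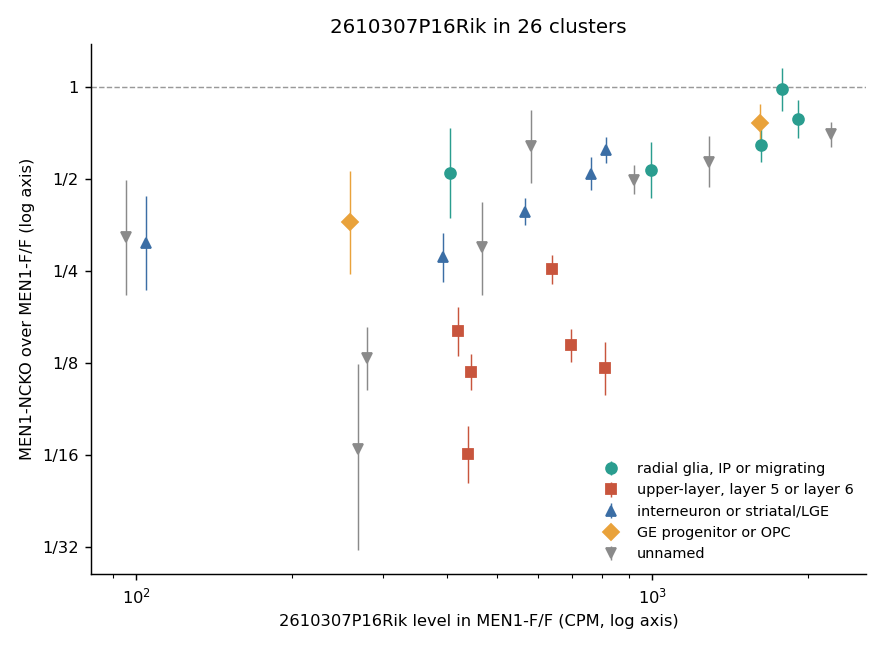
Each point is 1 of 26 clusters: the level of 2610307P16Rik in the F/F-labelled library (CPM, log axis) against the ratio of NCKO to F/F (log axis, 95% interval), with colours and shapes for groups of named classes. The layered excitatory clusters (red squares) lie between 0.0632 and 0.254. The interneuron and striatal points lie higher, but MGE-like cluster 3 (0.277, 0.230 to 0.333) overlaps layered cluster 1 (0.254, 0.227 to 0.283). The CGE-like nuclei named so in both clusterings, not drawn apart, had 0.217 (0.163 to 0.285), inside the layered range. The clusters above 1000 CPM lie between 0.570 and 0.984, overlapping the highest ratios of the others, which reach 0.642.

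Because the F/F level enters both axes of that plot, no correlation is drawn from it. At similar F/F levels, cluster 13, layer 6-like, had 810 against 97.9 CPM (ratio 0.121), and cluster 5, striatal or LGE-like, had 813 against 506 CPM (ratio 0.623). Unnamed clusters 18 and 10, both nearest to the subplate neuron markers, lay among the layered neurons with ratios of 0.0654 and 0.13. The 2 libraries filled the 4 upper-layer-like clusters unequally, with 701 F/F-labelled and 667 NCKO-labelled nuclei in cluster 1 but 602 and 940 in cluster 0. Weighting the clusters as in F/F gave a ratio of 0.187 for 2610307P16Rik and 0.304 for A330102I10Rik, and 0.780 for Sox4 and 0.846 for Sox11.

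Sums of marker lists of other cell types differed in both directions in upper-layer-like nuclei. The 8 markers of migrating neurons summed to 1836 CPM in F/F and 1549 CPM in NCKO (0.844, 0.825 to 0.863), with 4 of 8 lower, and the 7 of intermediate progenitors to 15.2 and 11.6 CPM (0.758, 0.582 to 0.987), with 5 of 7 lower and 1 at 0 in both. Radial glia markers summed to 783 and 761 CPM (0.971, 0.939 to 1.01), with 3 of 10 lower. Sums were higher in NCKO for layer 5 (1.3, 1.27 to 1.33, 0 of 7 lower), subplate (1.45, 1.35 to 1.56, 3 of 7 lower) and oligodendrocyte precursor markers (1.52, 1.42 to 1.64, 3 of 8 lower). The highest ratio was that of Cajal-Retzius markers (1.71, 1.45 to 2.03, 2 of 7 lower). The lowest was that of choroid plexus or ependymal markers, 11.9 and 3.49 CPM (0.293, 0.193 to 0.436), with 2 of 5 lower and 1 at 0 in both. In layer 6-like nuclei the sums of migrating and intermediate progenitor markers were 1844 and 1735 CPM (0.941, 0.909 to 0.973) and 14.8 and 16.1 CPM (1.09, 0.741 to 1.61). The choroid plexus or ependymal ratio was 0.236 (0.102 to 0.501) there and 0.374 (0.165 to 0.828) in layer 5-like nuclei, with 1 of 5 lower in each. The part of such markers' cells in the ratios of 2610307P16Rik was not tested.

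At the level of single nuclei, 2610307P16Rik was detected in a smaller share of nuclei in NCKO, and a nucleus with no UMI is not shown to lack the RNA. With every nucleus thinned to 1000 UMIs, 586 of 1609 upper-layer-like nuclei of F/F had a UMI (36.4%, 34.1 to 38.8) and 142 of 2135 of NCKO (6.65%, 5.63 to 7.79). Unthinned, the shares were 75.9% and 20.2%, at median depths of 4240 and 4081 UMIs. In layer 6-like nuclei the thinned shares were 36.8% (32.9 to 40.7) and 3.24% (2.23 to 4.54), and unthinned 70.9% and 10.6%. Migrating nuclei had 75.1% (68.8 to 80.8) and 68.5% (62.4 to 74.3), and those with 3 or more UMIs were 23% and 14.5%. For A330102I10Rik in upper-layer-like nuclei the thinned shares were 7.27% (6.05 to 8.65) and 2.25% (1.66 to 2.97), and unthinned 26.4% and 10.3%. Sox4 was found in 16.2% (14.4 to 18.1) and 11.9% (10.6 to 13.4) of upper-layer-like nuclei after thinning, and in 47.9% and 39% before it. Sox11 was found in 33.6% (31.3 to 35.9) and 27.7% (25.8 to 29.6), and in 77.4% and 70.3% before it. In intermediate progenitor-like nuclei Sox11 was found in 54.4% (46.3 to 62.4) of F/F and 36.1% (27.5 to 45.4) of NCKO nuclei although its level was 806 and 807 CPM, so no order is read from those shares.

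**Figure D4:**
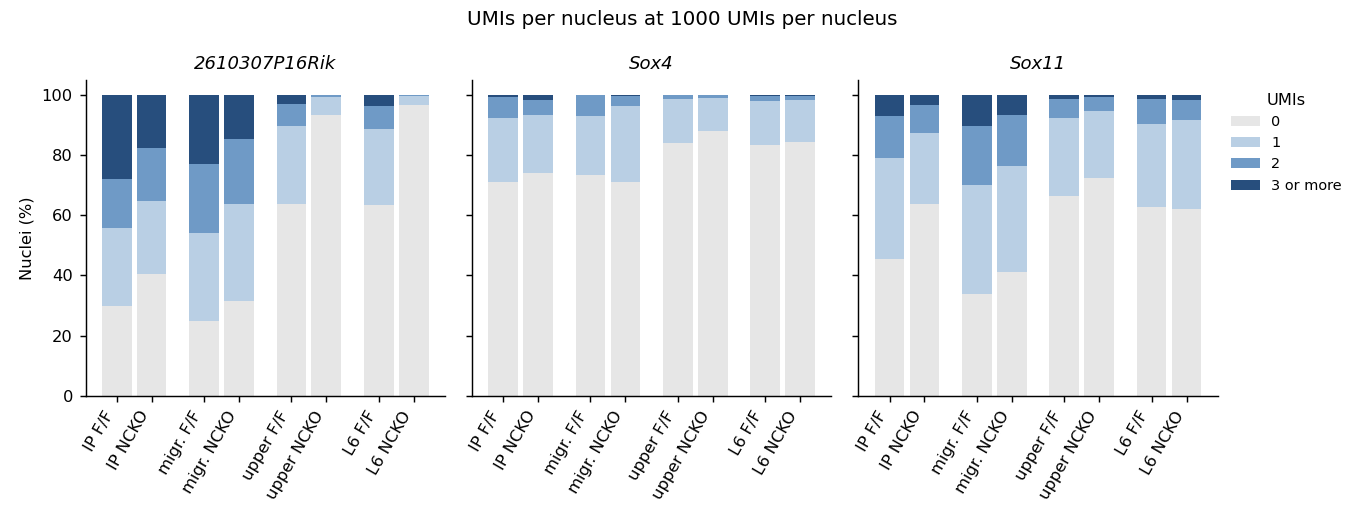
Percent of nuclei with 0, 1, 2 or 3 or more UMIs of 2610307P16Rik, Sox4 and Sox11 after each nucleus was thinned to 1000 UMIs, in intermediate progenitor-like (IP), migrating, upper-layer-like and layer 6-like (L6) nuclei of both libraries. The grey part, nuclei with no UMI, is 63.6% in F/F and 93.3% in NCKO for 2610307P16Rik in upper-layer-like nuclei and 83.8% and 88.1% for Sox4.

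Non-neural nuclei were used to gauge detection outside the neural lineage, and they gave no single level. Whether those cells make the RNA was not tested. Microglia-like nuclei, 22 and 44 with median depths of 2717.5 and 2171 UMIs, had 366 CPM (237 to 540) of 2610307P16Rik in F/F and 50.1 CPM (18.4 to 109) in NCKO, and thinned shares of 27.3% (10.7 to 50.2) and 4.55% (0.555 to 15.5). Mural-like nuclei (18 and 33) had 1065 CPM (818 to 1362) and 770 CPM (596 to 980), and meningeal-like nuclei (17 and 48) 838 CPM (628 to 1097) and 555 CPM (458 to 666). Endothelial-like nuclei had 0 UMIs in 4 nuclei of F/F and 175 CPM (116 to 252) in 48 nuclei of NCKO. The mural-like and meningeal-like levels in NCKO were thus above those of the layered neurons, 46.3 to 99.1 CPM. Free RNA was not measured, and its part in any of these levels was not tested.

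The upper-layer-like share of F/F, 36.4%, lies inside the microglia-like interval. The MGE-like share of F/F, 21.8%, lies below the microglia-like value, so no expression is read from it. In CPM of 2610307P16Rik, upper-layer-like (504 and 81.8) and layer 6-like levels (538 and 46.3) lie inside the microglia-like intervals of their libraries. The layer 5-like level lies above that interval in F/F (677 CPM) and inside it in NCKO (99.1 CPM). From levels inside, no expression beyond that of microglia-like nuclei is read. The level was not uniform within F/F: MGE-like cluster 12 (137 nuclei) had 105 CPM and unnamed cluster 20 (62 nuclei) 95.6 CPM, both below the microglia-like interval. Sox4 had 6 UMIs in microglia-like nuclei of F/F, 87.8 CPM (32.2 to 191), and 13 in NCKO, 109 CPM (57.8 to 186). Its unthinned share there was 22.7% in both libraries, and after thinning it was 0 of 22 nuclei in F/F and 11.4% (3.79 to 24.6) in NCKO. The upper-layer-like Sox4 levels, 160 and 120 CPM, lie within those microglia-like intervals. Sox11 was found in 9.09% (1.12 to 29.2) and 11.4% (3.79 to 24.6) of microglia-like nuclei after thinning. Its levels there were 146 CPM (70.2 to 269) and 184 CPM (115 to 278), and its upper-layer-like levels, 413 and 338 CPM, lie above. A330102I10Rik had 2 and 0 UMIs in microglia-like nuclei, 29.3 CPM (3.54 to 106) and 0 CPM (0 to 30.8). The upper-layer-like levels of A330102I10Rik, 83.6 and 26.8 CPM, lie inside these intervals, and its layer 5-like and layer 6-like levels lie above them.

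Around Sox4, the neighbouring genes were read in upper-layer-like nuclei first. The files place 10 other genes within 1 Mb of Sox4, of which 5 had at least 50 UMIs in upper-layer-like nuclei. All 5 lay below 0 on the log2 scale, beside 48.4% of all genes measured, and 3 were lower by log2 1 or more, beside 0.455%: the noncoding members, which were chosen for this difference, and Gm40841. Nothing is read from these counts. Gm40841, a noncoding RNA gene 528853 bp from Sox4 beyond 2610307P16Rik, had 2148 against 1005 UMIs, 275 against 100 CPM, a ratio of 0.364 (0.337 to 0.392). The coding genes on the other side were Cdkal1, a tRNA-modifying enzyme, at 87.2 against 81.1 CPM (0.931, 0.840 to 1.03), and E2f3, a cell cycle factor, at 38.1 against 28.5 CPM (0.749, 0.634 to 0.884). Gm40841 was lower in NCKO in all 9 populations, with ratios from 0.364 in upper-layer-like to 0.760 (0.683 to 0.847) in layer 5-like nuclei. Its interval held 1 in radial glia-like (11 against 7 UMIs, 0.125 to 1.08) and intermediate progenitor-like nuclei (19 against 7 UMIs, 0.18 to 1.255). It also held 1 in migrating nuclei (21 against 13 UMIs, 0.275 to 1.25). E2f3 was as low or lower in some of the 9 populations, with 0.714 (0.540 to 0.949) in layer 5-like nuclei and 0.227 (0.0556 to 0.696) in migrating nuclei, the latter from 17 and 4 UMIs. Cdkal1 ran from 0.928 in radial glia-like to 1.43 (1.04 to 1.98) in migrating nuclei. The layer 6-like ratio of Gm40841, 0.532 (0.485 to 0.584), stood far from that of 2610307P16Rik, 0.0860.

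**Figure D5:**
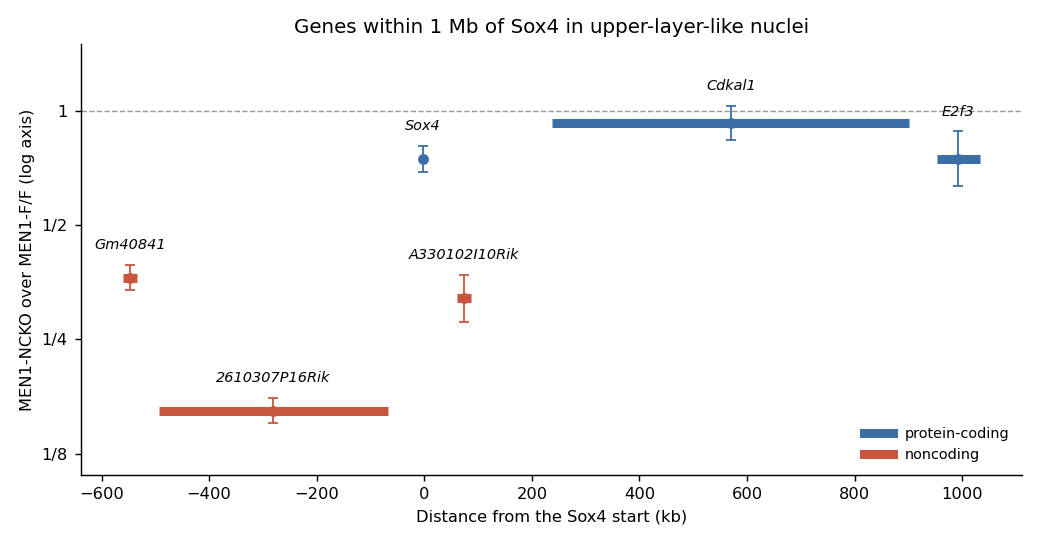
Ratio of NCKO to F/F in upper-layer-like nuclei (log axis, 95% intervals) for Sox4 and the 5 genes within 1 Mb that had at least 50 UMIs, drawn as bars from gene start to end at their distance in kb from the Sox4 start, blue for protein-coding and red for noncoding genes. The 3 noncoding genes lie between 0.162 and 0.364, and Sox4, E2f3 and Cdkal1 between 0.748 and 0.931.

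The plot of the locus shows the noncoding genes on both sides of Sox4, with Sox4 itself near its coding neighbours in upper-layer-like nuclei. Around Sox11, 3 of 13 genes within 1 Mb had at least 50 UMIs, 2 lay below 0 (48.4% of all genes) and none was lower by log2 1 (0.455%). The nearest, the noncoding Silc1 at 173631 bp, had 85 against 50 UMIs (0.457, 0.316 to 0.656), a log2 ratio of -0.67. Around Sox12, 23 of 69 had at least 50 UMIs, 3 lay below 0 (48.4% of all genes) and none was lower by log2 1 (0.455%).

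Genes of the pathway were read from lists that carry no test here. Of 12 reported SoxC targets, 9 had at least 50 UMIs in upper-layer-like nuclei, and 8 of these were above 0 and 1 below, with a median log2 ratio of 0.16 beside 0.01 over all genes, of which 48.4% lay below 0. Tubb3, a neuronal tubulin, had 332 against 432 CPM (1.30, 1.24 to 1.37), and Dcx, a microtubule-binding protein of migrating neurons, 235 against 251 CPM (1.07, 1 to 1.13). Ezh2, the catalytic subunit of Polycomb repressive complex 2, had 150 against 135 CPM (0.901, 0.833 to 0.975) and was the member below 0. In migrating nuclei 6 targets were measured, 5 above and 1 below (48.6% of all genes below), with a median of 0.20 beside 0.01. In layer 6-like nuclei there were 8, 6 above and 2 below (40.8% of all genes below), with a median of 0.28 beside 0.05. None passed log2 1 in these 3 populations. In intermediate progenitor-like nuclei 9 were measured, 8 above and 1 below (46.1% of all genes below), with a median of 0.58 beside 0.04. There 2 were higher by log2 1 or more (2.3% of all genes): Reln, 9 against 61 UMIs, and Marcksl1, 24 against 41 UMIs. In MGE-like nuclei 7 were measured, 3 above and 4 below (48.1% of all genes below), with a median of -0.04 beside 0.01.

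Of 15 proneural and POU-domain partners, 11 were measured in upper-layer-like nuclei, of which 9 lay below 0 (48.4% of all genes), and the median was -0.27 beside 0.01. Pou3f3 was lower by more than log2 1, at 81 against 33.1 CPM (0.408, 0.357 to 0.467). Pou3f2 had 108 against 54.1 CPM (0.5, 0.448 to 0.557) and Pou3f1 76.3 against 55 CPM (0.721, 0.641 to 0.811). These are class III POU factors, a class known to bind DNA beside Sox proteins. In migrating nuclei 8 partners were measured, 5 above and 3 below 0 (48.6% of all genes below), with a median of 0.07 beside 0.01. There Pou3f3 had 216 against 129 CPM (0.595, 0.439 to 0.802).

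Of 14 newborn-neuron genes 12 were measured in upper-layer-like nuclei, 10 above and 2 below 0 (48.4% of all genes below), with a median of 0.18 beside 0.01. Igfbpl1, a gene of newborn neurons, was lower by more than log2 1, at 541 against 216 CPM (0.399, 0.378 to 0.420), while in migrating nuclei it had 3428 against 3854 CPM (1.12, 1.06 to 1.20). All 15 neuron maturation genes were measured, 8 above and 7 below (48.4% of all genes below), with a median of 0.01, as over all genes. Of the 17 other Sox genes on the lists only Sox5 and Sox6, both of the SoxD group, had 50 UMIs in upper-layer-like nuclei. Sox5, a deep-layer factor, had 1151 against 1140 CPM (0.990, 0.963 to 1.02) and Sox6 13 against 12.6 CPM (0.970, 0.741 to 1.27). In migrating nuclei Sox6 had 66 against 8 UMIs, 119 against 13.9 CPM (0.117, 0.0485 to 0.244). Sox6 is also a marker of MGE interneurons, and the 9 markers of that list summed to 528 and 447 CPM in migrating nuclei, with 4 of 9 lower and 1 at 0 in both; their part in the value was not tested.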

How the data were processed

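Nuclei of 1 library per genotype label were profiled with 10x 3′ chemistry. Per the file headers, Cell Ranger 6.1.0 produced the UMI counts per gene and barcode, on mm10 per the submitters' processing notes, and the deposited counts were used unchanged. Barcodes with at least 500 genes and at most 5% mitochondrial UMIs were kept, and 336 (F/F) and 924 (NCKO) simulated-neighbour doublets were removed. Nuclei were clustered with leidenalg 0.10.2 (resolution 1) on 2000 variable genes without the 5 members. Of 49 clusters 32 were named from marker lists; the naming rule was settled after the clusters were seen. Counts were summed per population and library, and CPM, log2 of (CPM + 5) and exact intervals (Poisson for levels, conditional binomial for ratios, Clopper-Pearson for shares) were computed with scipy 1.17.1. Named genes are the members, the genes of the lists, neighbours within 1 Mb with at least 50 UMIs, and the 5 most alike by Spearman correlation. Members and lists were chosen with earlier results of these data known. The ratio step was tested on simulated data: with 200 of 12758 genes changed in upper-layer-like nuclei, 75.6% of 4-fold lower genes passed log2 1. Only 4.35% of 2-fold lower genes passed there, at a median log2 of -0.80, since adding 5 CPM shrinks the log2 ratios below the cut. In radial glia-like nuclei 100% of 4-fold and 36.1% of 2-fold lower genes passed. Most 2-fold differences are thus missed by this cut. Alternatives varied filters, clustering, pseudocount, thinning and centring.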

Additional observations from a re-analysis of the deposited data

How the results depend on the processing

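Upper-layer-like log2 ratios of the 5 genes were recomputed under 12 alternatives each: 53 of these values stayed within counting error of those reported and 7 did not. For 2610307P16Rik (-2.55 as reported) these were -2.27 with all deposited barcodes, -2.69 at clustering resolution 2, -2.36 with CPM + 20 and -2.36 with clusters weighted as in F/F. Sox4 (-0.40) was -0.64 at resolution 2, A330102I10Rik (-1.48) was -1.15 with CPM + 20, and Sox12 (0.12) was -0.48 with each nucleus thinned to 1000 UMIs. Sox12 kept its sign in 9 of 12 alternatives, and the other 4 genes kept theirs in 12 of 12. Elsewhere 495 ratios stayed, 43 moved and 2 reversed: 2610307P16Rik in intermediate progenitor-like nuclei was 0.25 when doublets were kept and 0.25 when every deposited barcode was used, where the class held 15 and 18 nuclei. Of 144 recomputed levels for each gene, 59 moved for 2610307P16Rik, 42 for Sox4, 37 for Sox11, 22 for A330102I10Rik and 9 for Sox12. All 20 shares recomputed at other thinning depths moved. Against the reported level, levels went down to 0.193 times for 2610307P16Rik (CGE-like, NCKO) and 0.503 times for Sox4 (intermediate progenitor-like, F/F). Those of A330102I10Rik ran from 0.12 to 4.59 times the reported level, those of Sox12 from 0 to 1.96 times and those of Sox11 from 0.656 to 1.34 times. In CGE-like nuclei the log2 ratio of 2610307P16Rik ranged from -2.28 to -0.82 over 13 alternatives; the one restricted to nuclei named CGE in both clusterings (-2.14) was chosen after seeing the data. The cause was not tested for any of these values. No paired analysis was possible because each label has 1 library and the results come from no test. Depth limits Sox12 and, in progenitors, A330102I10Rik, which had as few as 5 UMIs in a population.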
